A study of Mus musculus with 7 samples.

Results

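The genes of the translation initiation factors were followed in the ribosome-bound RNA of cholinergic cells from mouse ventral striatum. They were taken by symbol, as every row of the expression table whose name starts with Eif and a digit from 1 to 6, without Eif2s3y and Eif2ak3. The rule found 49 genes among the 22016 rows of the table, each with 1 row. Of these, 47 reached a mean of 1 FPKM (fragments per kilobase of transcript, scaled to library size) over the 7 libraries and were tested. Eif2ak2 (0.2 to 1.0 FPKM) and Eif4ebp1 (0.1 to 0.9 FPKM) stayed below that level. Eif3j1, Eif3k and Eif4a2 were not analysed here.

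All mice carried the ChAT bacTRAP transgene, which tags ribosomes in cells where the Chat promoter is active, and p11 fl/fl, a floxed S100a10. Littermates that lacked Cre gave the 3 WT libraries. The 4 KO libraries came from mice that also carried ChAT Cre, so Cre and the deletion cannot be told apart. Mice were 8 to 12 weeks old, of both sexes, untreated and on a C57/Bl6N background. Each library pooled 6 ventral striata of 3 mice, so a replicate is a pool. Translating ribosome affinity purification pulls down tagged ribosomes with the RNA on them. Total RNA of the same cells was not analysed here, and the amount of a transcript and its share on ribosomes cannot be told apart.

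Values of single libraries are listed in the order of their replicate numbers, WT1 to WT3 and KO1 to KO4. The targeted gene S100a10 measured 329.5, 332.7 and 387.5 FPKM in WT, against 127.1, 138.8, 189.8 and 89.2 FPKM in KO, with every KO value lower. Cholinergic markers were abundant, with 12 of 12 tested and summed levels of 1664.9 to 1784.2 FPKM in WT and 1325.5 to 1522.8 FPKM in KO. That gap rested on Slc18a3, the vesicular acetylcholine transporter (412.1 to 675.6 against 265.4 to 361.4 FPKM). The other 11 markers summed to 1108.6 to 1252.8 and 1060.1 to 1161.4 FPKM, which overlapped, and Lhx8 was higher in every KO library. Markers of medium spiny neurons (8 rows) summed to 82.2 to 108.4 FPKM in WT but 92.9 to 307.9 FPKM in KO, with the highest sum in KO1. Those of oligodendrocytes (6 rows) summed to 31.9 to 37.1 against 33.7 to 77.3 FPKM, also highest in KO1. KO4 too stood above every WT library, at 131.6 FPKM for medium spiny, 46.9 FPKM for oligodendrocyte and 36.7 FPKM for other interneuron markers, where WT reached 108.4, 37.1 and 19.5 FPKM. The 6 microglial markers summed to at most 1.9 FPKM in any library, with C1qa listed at 0 in all but KO2. Every WT library carries a lower library number in the file header than any KO library, so whatever those numbers stand for cannot be told apart from genotype.

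Initiation brings the initiator tRNA and the small ribosomal subunit to the start codon of an mRNA. The GTP-bound factor eIF2 carries the initiator tRNA, and eIF2B reloads eIF2 with GTP after each round. The complex eIF4F, made of the cap-binding eIF4E, the scaffold eIF4G and the helicase eIF4A, recruits the mRNA. In turn, eIF3 bridges the mRNA to the small subunit. The factors eIF1 and eIF1A act early in scanning, and eIF5 triggers GTP hydrolysis on eIF2. In neurons, phosphorylation of eIF2 and binding of eIF4E by its inhibitors are well-known switches of protein synthesis at synapses.

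The levels of the members spanned 0.1 to 630.0 FPKM. Eif1, a guardian of start codon choice, was the highest in both groups, with a WT mean of 523 ± 45.1 FPKM (SD, n = 3) and a KO mean of 545 ± 77.5 FPKM (SD, n = 4). In WT it was followed by Eif5a, Eif1b and Eif4g2 with 260, 225 and 180 FPKM. At the other end, Eif4ebp1 and Eif2ak2 had WT means of 0.333 and 0.533 FPKM, and none of the 49 genes was listed at 0 in any library. The median of the 47 tested members was 33.0 FPKM against 9.54 FPKM for all 10089 tested rows. Together the members made up 0.605% to 0.668% of the summed FPKM in the WT and 0.587% to 0.646% in the KO libraries, ranges that overlapped. Longer transcripts tended to have lower levels, with a Spearman correlation of -0.29 across the 47 members and -0.20 across 10029 rows with a transcript length, a description across genes that share the same libraries.

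**Figure D1:**
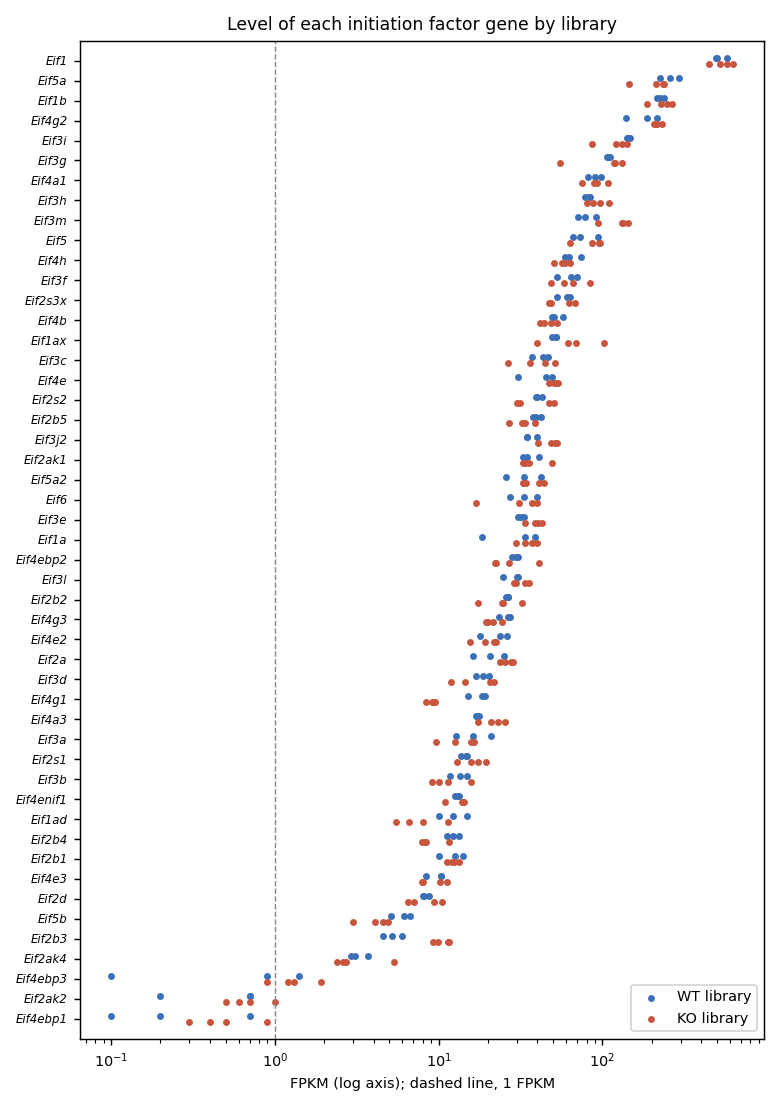
FPKM of the 49 initiation factor genes (x axis, log scale) in the 3 WT (blue) and 4 KO (red) libraries, ordered by WT mean, with a dashed line at 1 FPKM. WT and KO points lie apart for Eif4g1 and Eif2b3, while Eif1 is the highest gene in both groups.

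As a family the initiation factors did not move in one direction. Of the 47 tested genes 2 changed in KO at an adjusted p under 0.05 (limma on log2(FPKM + 1), Benjamini-Hochberg over all tested rows), Eif4g1 lower and Eif2b3 higher, a share of 4.26% where 1.74% of all tested rows passed. Fold changes are KO minus WT on that scale, where the added 1 shrinks the change of weakly expressed genes. Positive values were found for 23 members and negative values for 24, with a median of 0.00 beside 0.03 for all rows. The range ran from -0.87 to 0.88, and 0 members changed 2-fold on this scale. Groups did not overlap for 6 members, 12.8% of those tested, where 17.4% of all rows did not. At an unadjusted limma p under 0.05 there were 7 members (14.9%, beside 18.8% of all rows). Eif2b3, Eif3m and Eif3j2 were on the higher side, where 10.1% of all rows stood, and Eif4g1, Eif1ad, Eif2b4 and Eif5b on the lower side, where 8.69% stood. Beyond the 2 called genes, the counts were thus no higher than in the whole table.

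**Figure D2:**
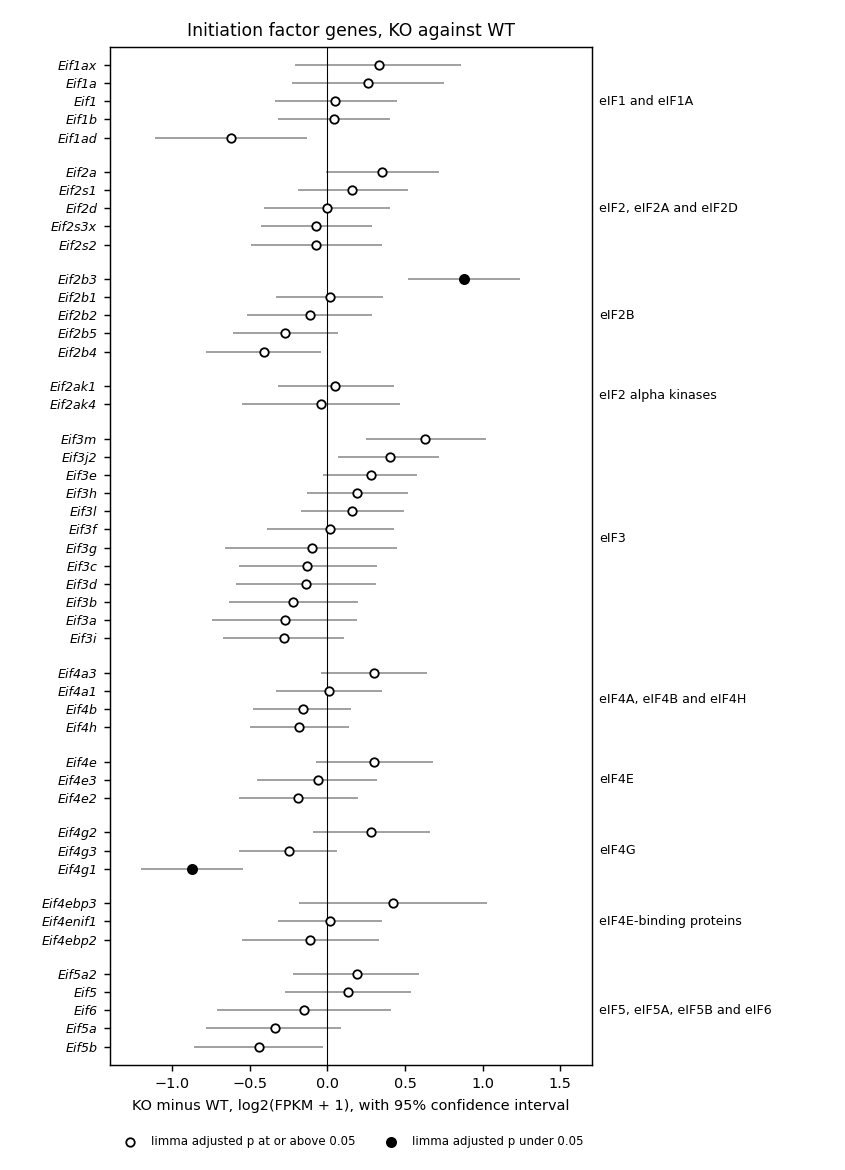
Log2 fold change of KO against WT (x axis, log2(FPKM + 1), bars are 95% confidence intervals from limma) for the 47 tested genes, grouped by factor. Filled points mark the 2 genes past the threshold, Eif4g1 at -0.87 and Eif2b3 at 0.88.

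Among the eIF4G scaffolds, which hold eIF4E and eIF4A together on the capped mRNA, Eif4g1 fell in KO to 51.9% of its WT mean. Eif4g1 (chromosome 16, 20668313 to 20692884, plus strand, mm10) measured 15.2, 18.3 and 19.1 FPKM in WT, against 9.4, 9.1, 9.5 and 8.4 FPKM in KO. The KO values lay close together and below every WT value. Eif4g1 averaged 17.5 ± 2.06 FPKM in WT (SD, n = 3), against 9.1 ± 0.497 FPKM for KO (SD, n = 4), with a log2 fold change of -0.87 (SE 0.15, 95% confidence interval -1.20 to -0.54), and limma gave an adjusted p of 0.016. An exact permutation test over the 35 splits, two-sided by doubling the smaller tail, gave p = 0.057, the smallest value this rule allows here. In the authors' deposited table of genes, Eif4g1 was the 1 member listed, with a log2 fold change of -0.99 and an adjusted p of 0.0024. Fewer cells of a type and less RNA per cell cannot be told apart in such pooled samples. Slc18a3 was lower in every KO library as well, while the sum of the other cholinergic markers overlapped between groups, and their part in the result was not tested. The fold change was -0.89 without KO1 (limma adjusted p = 0.015) and -0.84 without both KO1 and KO4 (0.040), the libraries with the most markers of other cells. The Eif4g1 call was lost without WT2 (-0.84, limma adjusted p = 0.12), WT3 (-0.81, 0.087) or KO2 (-0.87, 0.062).

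The relatives of Eif4g1 did not pass. Eif4g2, also known as DAP5, lacks the eIF4E-binding site and supports initiation without the cap. Eif4g2 was far higher per length, with 139.0, 186.4 and 215.8 FPKM in WT, against 232.0, 215.4, 212.2 and 206.6 FPKM in KO. WT1 was the low library here, and the groups overlapped (0.28, limma adjusted p = 0.40). Eif4g3, the closest relative of Eif4g1, had 23.3, 27.2 and 26.5 FPKM in WT and 19.4, 24.5, 21.6 and 20.1 FPKM in KO (-0.25, 95% confidence interval -0.57 to 0.06, limma adjusted p = 0.37), again with overlap. Within each library, Eif4g1 made up 8.56%, 7.89% and 7.31% of the summed FPKM of the 3 eIF4G genes in WT, against 3.60%, 3.65%, 3.90% and 3.57% in KO. Of Eif4g1 and Eif4g3 alone its share was 39.5% to 41.9% in WT and 27.1% to 32.6% in KO. The groups were apart in both shares, which restate the lower Eif4g1 values relative to its relatives.

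Eif4g1 passed, Eif4g3 is its closest relative, and Eif3m had the smallest p of the members that did not pass. Their start regions are shown. They are RefSeq windows of GRCm38.p6 from 250 bases before to 50 bases after the annotated start, 5′ to 3′ on the gene's strand, and no entry was used for Eif2b3 or Eif4g2. Capitals mark matches on either strand to the E-box CACGTG, the CRE TGACGTCA, the NRF1 site, the GC box GGGCGG and the ETS site CCGGAAGT.
Eif4g1, chr16:20672477-20672776, plus strand: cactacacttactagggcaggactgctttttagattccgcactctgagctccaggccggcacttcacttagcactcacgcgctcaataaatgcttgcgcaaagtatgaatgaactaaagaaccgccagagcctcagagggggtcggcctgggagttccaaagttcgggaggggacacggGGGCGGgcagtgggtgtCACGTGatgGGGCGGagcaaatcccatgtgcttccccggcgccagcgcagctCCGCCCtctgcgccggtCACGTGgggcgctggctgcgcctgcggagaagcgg
Eif4g3, chr4:137993205-137993504, plus strand: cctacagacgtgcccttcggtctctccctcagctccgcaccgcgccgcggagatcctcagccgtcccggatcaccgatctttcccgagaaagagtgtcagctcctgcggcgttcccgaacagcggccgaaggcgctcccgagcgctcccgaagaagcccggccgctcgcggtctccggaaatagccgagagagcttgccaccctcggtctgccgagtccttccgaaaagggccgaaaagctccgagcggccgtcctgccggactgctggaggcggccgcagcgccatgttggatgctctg
Eif3m, chr2:105016978-105017277, minus strand: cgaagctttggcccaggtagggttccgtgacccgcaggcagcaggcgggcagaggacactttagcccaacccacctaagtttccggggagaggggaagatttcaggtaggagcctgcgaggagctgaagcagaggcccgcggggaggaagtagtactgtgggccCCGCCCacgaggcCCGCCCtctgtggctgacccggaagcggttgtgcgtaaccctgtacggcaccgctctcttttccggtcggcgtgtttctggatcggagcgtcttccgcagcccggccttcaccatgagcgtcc
The Eif4g1 window held 2 E-boxes, which began 54 bases before the start and at base 16 after it, and 3 GC boxes. The window lies inside the gene span given above, which begins further upstream in GENCODE. The Eif3m window held 2 GC boxes, and that of Eif4g3 held none of these letters. Windows were found for 38 of the 49 members, and the first window of each gene was searched (Eif4g3 has 2). The E-box stood in 7 of the 38 (18.4%), beside 10.8% of 7557 genes with a tested row and 7.24% of all 27025 genes. The 7 were Eif1b, Eif3a, Eif3f, Eif4a1, Eif4g1, Eif4h and Eif5a2, of which Eif4g1 was the 1 that passed the test. GC boxes stood in 76.3%, ETS sites in 18.4%, and CRE and NRF1 sites in 0 of the 38 windows, beside 66.9%, 9.25%, 3.65% and 2.28% of the genes with a tested row. A match is a description of letters and shows no binding.

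**Figure D3:**
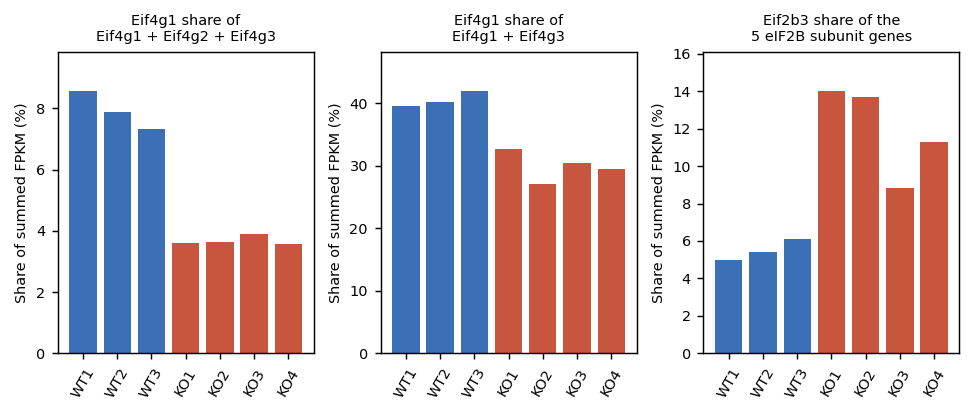
Share of summed FPKM (y axis, percent) in each library (x axis, WT blue, KO red) for Eif4g1 among the 3 eIF4G genes, for Eif4g1 against Eif4g3, and for Eif2b3 among the 5 eIF2B subunit genes. Both Eif4g1 shares are lower in every KO library and the Eif2b3 share is higher.

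The eIF2B complex is the exchange factor of eIF2 and the target of its phosphorylation switch. Its gamma subunit Eif2b3 forms the catalytic part together with the epsilon subunit Eif2b5. Eif2b3 (chromosome 4, 117019402 to 117087306, plus strand, mm10) rose from 4.6, 5.2 and 6.0 FPKM in WT to 11.4, 11.6, 9.2 and 9.9 FPKM in KO. Each KO value exceeded each WT value. Eif2b3 averaged 5.27 ± 0.702 FPKM in WT (SD, n = 3), against 10.5 ± 1.16 FPKM for KO (SD, n = 4), a KO level of 200% of WT, with a log2 fold change of 0.88 (SE 0.17, 95% confidence interval 0.52 to 1.24), and limma gave an adjusted p of 0.024. The exact permutation test of Eif2b3, two-sided, gave p = 0.057 as well. Without a filter on low values the adjusted p was 0.056 (limma). The Eif2b3 call was lost without WT1 (0.80, limma adjusted p = 0.11), WT2 (0.87, 0.13), WT3 (0.96, 0.054) or KO2 (0.83, 0.10) and was kept without KO1 (0.84, 0.028). Without both KO1 and KO4 it was 0.86 (limma adjusted p = 0.057).

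The other eIF2B subunits did not follow Eif2b3. Eif2b4, the delta subunit of the regulatory part, had 13.3, 11.2 and 12.2 FPKM in WT and 8.3, 8.4, 11.5 and 7.9 FPKM in KO (-0.41, limma adjusted p = 0.22). KO3 was the KO library that reached into the WT range. Snx17 overlaps Eif2b4 on the opposite strand, and the handling of strand was not given. Eif2b5 was the most abundant subunit, with 37.8, 39.3 and 41.9 FPKM in WT and 32.3, 26.8, 38.9 and 33.9 FPKM in KO (-0.27, limma adjusted p = 0.37), and KO3 again overlapped WT. Eif2b1 and Eif2b2, the alpha and beta subunits, had fold changes of 0.02 and -0.11. As a share of the 5 subunit genes, Eif2b3 took 4.99%, 5.39% and 6.10% in WT, against 14.0%, 13.7%, 8.83% and 11.3% in KO, again with no overlap. The share restates the higher Eif2b3 values relative to the other subunits.

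**Figure D4:**
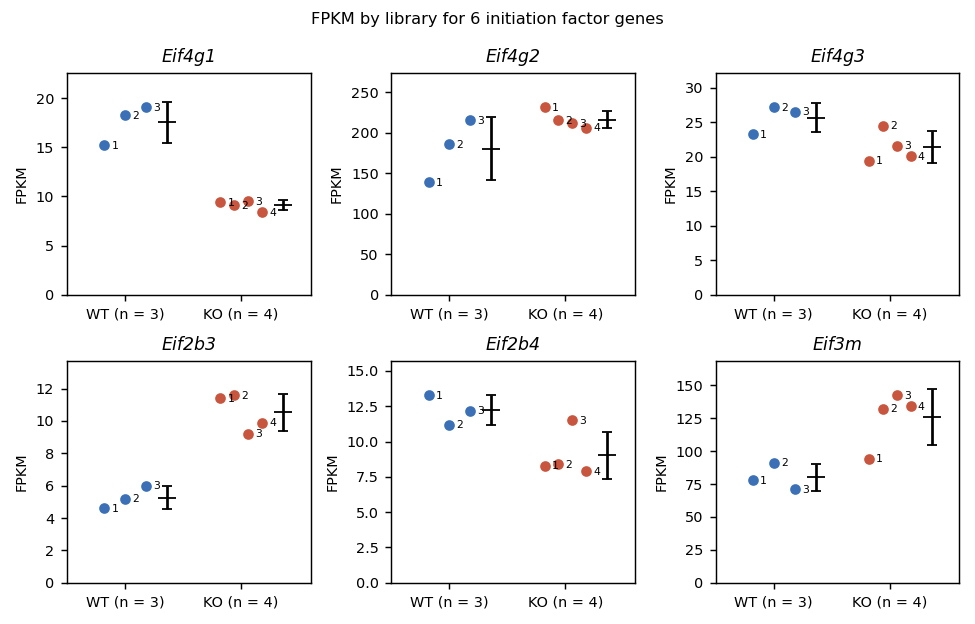
FPKM (y axis, from 0) of the 3 eIF4G genes, Eif2b3, Eif2b4 and Eif3m in WT (blue) and KO (red) libraries, with the replicate number beside each point and the mean ± SD in black. WT and KO points do not overlap for Eif4g1, Eif2b3 and Eif3m, and they overlap for Eif4g2, Eif4g3 and Eif2b4.

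The 3 subunits of eIF2 itself gave no call among 3 tested, also at an unadjusted limma p under 0.05 (0 of 3). Eif2s3x, the gamma subunit that binds GTP and the initiator tRNA, was the most abundant of them, at 52.9, 60.7 and 63.8 FPKM in WT and 62.3, 67.9, 47.5 and 48.8 FPKM in KO (-0.07, limma adjusted p = 0.85). In Eif2s3x, 35.3% of the 31-mers of its transcripts occur in other genes, so its reads may be shared. Eif2s1, which carries the regulatory phosphorylation site, had 15, 14.6 and 13.6 FPKM in WT and 12.9, 17.5, 19.4 and 15.8 FPKM in KO (0.16, limma adjusted p = 0.63), and the groups overlapped. Eif2s2, the beta subunit, had a fold change of -0.07. Eif2a, which can deliver initiator tRNA without eIF2 and is not a subunit of it, had 16.2, 25.1 and 20.7 FPKM in WT and 25.5, 27.7, 28.6 and 23.7 FPKM in KO (0.35, limma adjusted p = 0.28). WT2 reached into the KO range. Eif2d, another tRNA-binding factor, stood at 6.5 to 10.5 FPKM over all libraries.

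The kinases that phosphorylate eIF2 under stress showed no group difference in 2 tested genes (0 calls with limma, 0 at an unadjusted p under 0.05). Eif2ak1, the heme-regulated kinase, was the abundant one, with 32.6, 34.5 and 41.0 FPKM in WT and 49.2, 33.7, 32.7 and 35.4 FPKM in KO (0.05, limma adjusted p = 0.90). Eif2ak4, the amino acid sensor GCN2, had 2.9, 3.1 and 3.7 FPKM in WT and 5.3, 2.6, 2.7 and 2.4 FPKM in KO (-0.04, limma adjusted p = 0.95). KO1 held the highest value of both kinases. The interferon-induced kinase Eif2ak2 was at most at 1.0 FPKM.

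The early scanning factors eIF1 and eIF1A had 0 calls among 5 genes with limma. At an unadjusted limma p under 0.05 there was 1 (20%, beside 18.8% of all rows). That gene was Eif1ad, a nuclear protein with an eIF1A-like domain, which had 15, 12.2 and 10 FPKM in WT and 5.5, 6.6, 11.4 and 8.0 FPKM in KO (-0.62, limma adjusted p = 0.17). KO3 lay within the WT range. Banf1 overlaps Eif1ad on the opposite strand, and the handling of strand was not given. Eif1 itself had 495.1, 498.7 and 574.9 FPKM in WT and 449.9, 521.1, 630.0 and 579.4 FPKM in KO (0.05, limma adjusted p = 0.91). Its paralog Eif1b, at a lower level per length, had a fold change of 0.04. Both genes of eIF1A, which helps place the initiator tRNA, varied between libraries of 1 group. Eif1ax had 52.4, 49.0 and 52.3 FPKM in WT, against 61.8, 101.7, 68.9 and 39.7 FPKM in KO (0.33, limma adjusted p = 0.50). Eif1a had 18.4, 38.8 and 33.9 FPKM in WT, with WT1 the low library, and 33.6, 37.4, 39.6 and 29.6 FPKM in KO (0.26, limma adjusted p = 0.57). Its fold change was -0.06 without WT1.

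The largest complex, eIF3, gave 0 calls among 12 genes with limma. At an unadjusted limma p under 0.05 there were 2 (16.7%, beside 18.8% of all rows). The complex had 6 positive and 6 negative fold changes and a median of -0.04. Its highest fold change belonged to Eif3m, a subunit of the structural core of mammalian eIF3. Eif3m (chromosome 2, 104999656 to 105017080, minus strand, mm10) had 78.0, 91.3 and 71.0 FPKM in WT, against 94.3, 132.1, 142.6 and 134.1 FPKM in KO. KO1 lay just above the highest WT library and the other KO libraries well above it. Eif3m averaged 80.1 ± 10.3 FPKM in WT (SD, n = 3), against 126 ± 21.5 FPKM for KO (SD, n = 4), and the fold change of 0.63 (SE 0.18) did not pass (limma adjusted p = 0.093). It passed without KO1 (0.77, limma adjusted p = 0.014) and without both KO1 and KO4 (0.78, 0.036). With trends in transcript GC content and length removed it was 0.42 (limma adjusted p = 0.14). Of the 31-mers of Eif3m, 26.2% occur in other genes, and Ccdc73 overlaps it on the opposite strand. The handling of strand was not given in the sources used here, so reads of both cannot be told apart.

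Eif3j2, of the loosely bound j subunit, had 34.7, 40.0 and 34.6 FPKM in WT and 40.5, 52.9, 51.7 and 48.4 FPKM in KO (0.40, limma adjusted p = 0.18), with no overlap but a small gap. As 94.9% of the 31-mers of Eif3j2 occur in other genes, above all in Eif3j1, its value may hold reads of both. Eif3e of the structural core had 33.3, 30.4 and 31.7 FPKM in WT and 38.5, 40.7, 42.7 and 33.5 FPKM in KO (0.28, limma adjusted p = 0.31). Its groups stood apart by 0.2 FPKM between WT1 and KO4, and its fold change was -0.02 with GC and length trends removed. Eif3i, of the module with Eif3b and Eif3g, was the most abundant eIF3 gene, with 140.7, 143.8 and 147.4 FPKM in WT and 86.9, 121.3, 141.4 and 132.0 FPKM in KO (-0.28, limma adjusted p = 0.42). Eif3b, a scaffold of that module, was the lowest in WT at 13.4 FPKM. The WT means of the eIF3 genes rose from Eif3b over Eif3a (16.6), Eif3d (18.6), Eif3l (28.5), Eif3e (31.8), Eif3j2 (36.4), Eif3c (42.3), Eif3f (62.4), Eif3m (80.1), Eif3h (81.6) and Eif3g (108) to Eif3i (144). Neighbours such as Eif3m and Eif3h overlapped across the WT libraries.

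KO1 stood low for several eIF3 genes and other members. Eif3g was at 55.4 FPKM in KO1 and at 117.5 to 131.4 FPKM in the other KO libraries, beside 106.0 to 111.7 FPKM in WT. Eif6 was at 17.0 FPKM in KO1 and at 31 to 39.9 FPKM in the rest of KO, beside 27.3 to 40.0 FPKM in WT. Over the 47 tested members KO1 held the lowest KO value in 21 (44.7%), beside 37.6% of all tested rows, and KO3 held the highest in 21 (44.7%, beside 27.8%). The median deviation of the members from their row means was -0.12 in KO1 and 0.21 in KO3 on the log2 scale, beside -0.02 and 0.04 for all rows. In WT, WT1 held the lowest value in 46.8% of the members, beside 54.2% of all rows.

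**Figure D5:**
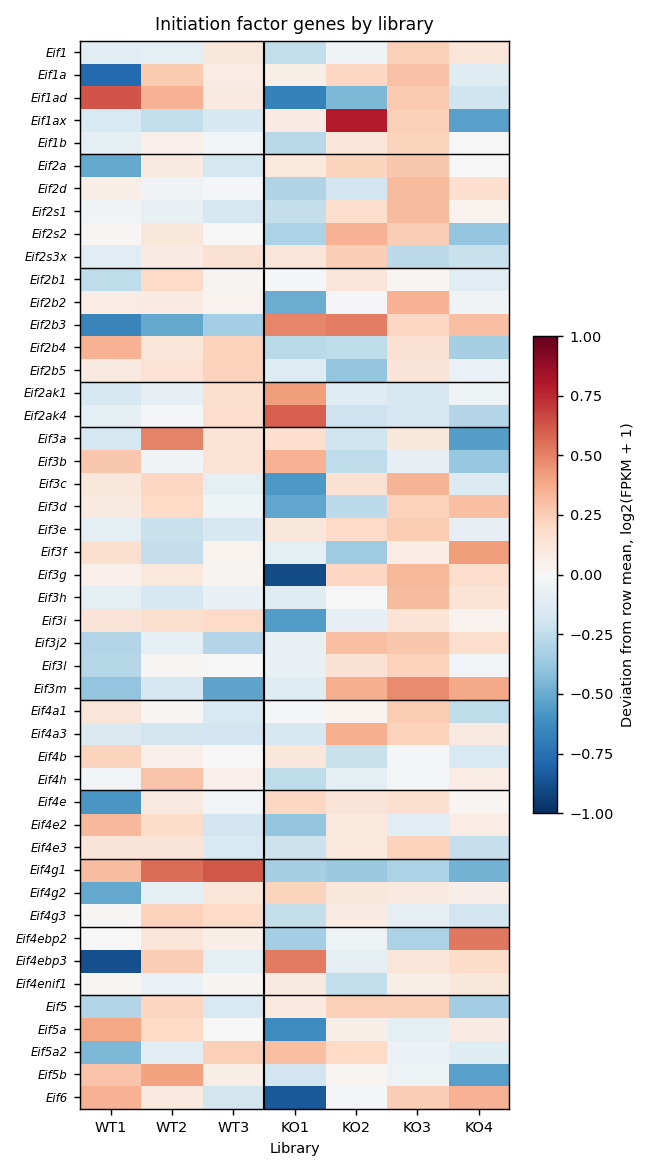
Deviation of each of the 47 tested genes from its own mean over the 7 libraries (colour, log2(FPKM + 1), scale from -1 to 1), with genes in rows by factor and libraries in columns. Eif4g1 and Eif2b3 change colour between WT and KO, while KO1 is blue for Eif3g, Eif3c, Eif3d, Eif5a and Eif6.

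The helicase eIF4A, which unwinds the mRNA leader, and its helpers eIF4B and eIF4H gave 0 calls among 4 genes with limma (0 at an unadjusted p under 0.05). Eif4a1 was the most abundant of the 4, with 97.9, 90.7 and 81.1 FPKM in WT and 88.9, 92.1, 107.6 and 75.4 FPKM in KO (0.01, limma adjusted p = 0.98). Eif4a3, whose product sits in the exon junction complex rather than in eIF4F, had 17.6, 17.1 and 17.0 FPKM in WT and 17.4, 25.3, 23.1 and 20.8 FPKM in KO (0.30, limma adjusted p = 0.33). Only KO1 reached into its narrow WT range. In Eif4a1 and Eif4a3, 31.1% and 31.2% of the 31-mers occur in other genes. Eif4h had 59.1, 73.7 and 62.4 FPKM in WT and 50.3, 56.3, 59.5 and 63.5 FPKM in KO (-0.18, limma adjusted p = 0.54), again with overlap. Eif4b had 57.3, 50.7 and 49.0 FPKM in WT and 53.0, 41.7, 48.6 and 43.9 FPKM in KO (-0.16, limma adjusted p = 0.58).

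The cap-binding proteins and their inhibitors also gave 0 calls, among 3 genes each, with 0 at an unadjusted limma p under 0.05. Eif4e had 30.5, 49.2 and 45.2 FPKM in WT and 53.3, 50.6, 51.8 and 46.9 FPKM in KO (0.30, limma adjusted p = 0.36). WT1 was the low library, and WT2 lay within the KO range. Eif4e2, a cap-binding repressor, had 26.2, 23.6 and 18 FPKM in WT and 15.6, 22.3, 19.1 and 21.8 FPKM in KO (-0.19, limma adjusted p = 0.61). Eif4e3 ran from 7.9 to 11.2 FPKM over all libraries (-0.06), and both overlapped between groups. Eif4ebp2, the main eIF4E-binding inhibitor of the brain, had 27.9, 30.6 and 29.5 FPKM in WT and 22, 27.0, 22.3 and 40.8 FPKM in KO (-0.11, limma adjusted p = 0.82), with KO4 the highest of all. Relative to Eif4e in the same library, Eif4ebp2 stood at 91.5%, 62.2% and 65.3% in WT and 41.3%, 53.4%, 43.1% and 87.0% in KO, with overlap. Eif4ebp3 had 0.1, 1.4 and 0.9 FPKM in WT and 1.9, 0.9, 1.2 and 1.3 FPKM in KO (0.42, limma adjusted p = 0.43), and 66.4% of the 31-mers of Eif4ebp3 are found elsewhere. Eif4enif1, which carries eIF4E into the nucleus and to processing bodies, had 13.2, 12.5 and 13.4 FPKM in WT and 14.0, 10.9, 13.8 and 14.3 FPKM in KO (0.02, limma adjusted p = 0.97).

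The late factors gave 0 calls among 5 genes with limma. At an unadjusted limma p under 0.05 there was 1 (20%, beside 18.8% of all rows). Eif5b, the GTPase that joins the subunits, had 6.1, 6.7 and 5.1 FPKM in WT and 4.1, 4.9, 4.6 and 3.0 FPKM in KO (-0.44, limma adjusted p = 0.24). WT3 and KO2 lay 0.2 FPKM apart, with no overlap. Rev1 overlaps Eif5b on the opposite strand. Other members with such overlaps include Eif2a (Serp1) and Eif2ak1 (Aimp2 and Ankrd61). Eif5a, a factor with the modified residue hypusine that also aids elongation, had 294.5, 258.9 and 225.9 FPKM in WT and 145.1, 235.4, 211.0 and 238.4 FPKM in KO (-0.34, limma adjusted p = 0.38), with KO1 the low library. Its paralog Eif5a2 had 25.8, 33.1 and 42.3 FPKM in WT and 44.1, 41.1, 34.2 and 32.8 FPKM in KO (0.19, limma adjusted p = 0.62). Eif5a made up 84.2% to 91.9% of the pair in WT and 76.7% to 87.9% in KO. Eif5, which triggers GTP hydrolysis on eIF2, and Eif6, which keeps the ribosomal subunits apart, had fold changes of 0.13 and -0.15.

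Members with GC-rich transcripts tended to be lower in KO. Across the 47 members the Spearman correlation of the fold change with transcript GC content was -0.53, and across 10029 tested rows it was -0.40, a description across genes that share the same 7 libraries. Eif4g1 (54.2% GC) and Eif2b3 (46.8%) lay on either side of the median GC content of 49.9%. With trends in GC content and length removed from each library, Eif4g1 had a fold change of -0.74 (limma adjusted p = 0.020) and Eif2b3 of 0.80 (0.019), and both calls were kept. Neither gene shares many 31-mers with others (0.7% and 0.0%), and no gene overlaps either on the opposite strand in GENCODE. On the same strand, Snord66 overlaps Eif4g1 and Gm22335 overlaps Eif2b3.

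Of the other genes of translation, in 5 lists, 1 passed, where 1.74% of all tested rows did. Mcts2, a retrocopy of the reinitiation factor Mcts1 that lies within H13 in the mouse, rose from 9.9, 14.9 and 14.6 FPKM in WT to 17.7, 27.4, 28.8 and 29.2 FPKM in KO (0.92, limma adjusted p = 0.048). The groups did not overlap, yet Mcts2 passed in only 1 of the 7 leave-one-out fits, that lacking KO1, with a limma adjusted p of 0.099 to 0.22 in the others. With GC and length trends removed it was 0.71 (limma adjusted p = 0.058). Of the 15 partners and regulators of initiation, 4 had an unadjusted limma p under 0.05 (26.7%, beside 18.8% of all rows). Beside Mcts2 these were Dhx29, a helicase of the scanning ribosome (-0.68, limma adjusted p = 0.083), Mcts1 (0.87, 0.10) and Gcn1l1, the activator of the kinase GCN2 (-0.59, 0.12). The list median was 0.02.

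None of 8 elongation factors passed with limma, and 2 (25%) had an unadjusted p under 0.05, a mark that 18.8% of all rows reached. Eef1a2, the neuronal and muscle form of the factor that delivers tRNA, had 80.6, 59.2 and 61.2 FPKM in WT and 25.2, 38.3, 37.3 and 49.7 FPKM in KO (-0.84, limma adjusted p = 0.071), with no overlap, and Eef1g had a fold change of 0.40. In termination and recycling 0 of 6 passed with limma and 1 (16.7%) had an unadjusted p under 0.05, the release factor Etf1 (-0.34, limma adjusted p = 0.24). The poly(A)-binding list gave 0 of 5 with limma and 1 (20%) at an unadjusted p under 0.05, Pabpc1 (0.58, limma adjusted p = 0.16). Among 12 genes of mTOR, MNK and S6 kinase signalling, which controls the eIF4E inhibitors, 0 passed with limma and 3 (25%) had an unadjusted p under 0.05. These were Rheb, the activator of mTOR (0.53, limma adjusted p = 0.14), Ddit4, an inhibitor of the pathway (-0.62, 0.19), and Mtor itself (-0.48, 0.24). The medians of these 4 lists were 0.16, 0.05, 0.07 and -0.08, beside 0.03 for all rows.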

How the data were processed

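The deposited table holds FPKM values per library, made by the authors and rounded to 1 decimal. Tools listed by the submitters' processing notes, without roles, are DESeq 1.10.1, Cufflinks 2.1.1 and TopHat2 2.0.8, with the build mm10. Per the labels' protocols, 1 ng of RNA per pulldown went through Ovation cDNA synthesis and then TruSeq library preparation. The authors' deposited table of genes gives mean FPKM, a fold ratio, its log2 value and p-values. FPKM is not a count, so depth is unknown, and summed FPKM ran from 379417 to 511328 per library. Groups and replicate numbers came from the sample titles, and nothing beyond separate pools defines a replicate, so the p-values measure the spread between these pools.

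Values were taken as log2(FPKM + 1) for the 10089 rows whose mean reached 1 FPKM. The test was two-sided, by limma 3.58.1 (R 4.3.3), with a trended eBayes prior and an adjusted p threshold of 0.05. The fit was tested on simulated data. Alternatives were other pseudocounts (0.1 and 5), filters, scalings, variance models, a replicate block, summed rows and each library left out; the removal of GC and length trends and a fit without both KO1 and KO4 were added after seeing the data. Coordinates, overlaps and 31-mers came from GENCODE M21 (GRCm38, the same build as mm10), which matched 49 of 49 members. Python 3.11.15 with pandas 2.3.3 and matplotlib 3.10.9 made tables and figures. Members and lists were chosen with earlier results of these data known. Values in every library are given for each member that passed and, in each complex, for up to 3 with the smallest p and the most abundant. Of the other translation genes, those that passed and those with the smallest p in each list are named.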

Additional observations from a re-analysis of the deposited data

Results flagged for a closer look

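Among 4 KO libraries, 4 of 49 members had 1 value whose gap to the others, divided by the range, exceeded Dixon's 95% critical value. Chance flags about 1 in 20 for independent values. The members share the same libraries, and the share flagged over all rows is not given here, so no excess can be read from the count. KO1 held the high value of Eif2ak1 (49.2 FPKM, beside 32.7 to 35.4) and of Eif2ak4 (5.3 FPKM, beside 2.4 to 2.7). KO3 held the high value of Eif2b4 (11.5 FPKM, beside 7.9 to 8.4). KO2 held the low value of Eif4enif1 (10.9 FPKM, beside 13.8 to 14.3).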

How the results depend on the processing

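Eif4g1 stayed lower in KO (log2 fold change -0.96 to -0.67) and Eif2b3 higher (0.60 to 0.99) in all 20 alternatives, and limma called Eif4g1 in 11 and Eif2b3 in 10 of the 11 that used every library without a block. Without both KO1 and KO4, 2 of 47 members were called, Eif4g1 and Eif3m, beside 213 of 10089 rows. With the replicate block 0 members and 18 of all rows were called, with Eif4g1 at -0.84 (adjusted p = 0.18) and Eif2b3 at 0.90 (0.20). KO4 has no partner in that fit, whose fold changes equal those without KO4. Deviations of same-numbered libraries from their group means correlated at -0.22, 0.02 and -0.26. So few pairs cannot settle whether the numbers pair the samples. Without a filter limma called 1 of 49 members (Eif4g1) and 83 of 14967 rows, and without trend 2 of 47 members and 100 of 10089 rows. With array weights it called 8 of 47 members beside 1689 of 10089 rows, a similar share. The 8 were Eif4g1, Eif2b3, Eif1ad, Eif3a, Eif3e, Eif3j2, Eif3m and Eif4a3. With 1 library left out, 0 to 3 members and 28 to 331 rows were called, and Eif4g1 passed in 4 and Eif2b3 in 3 of 7 such fits. The member median ran from -0.05 to 0.10. Signs turned for Eif1 (-0.03) and Eif4a1 (-0.05) with quantile normalization, for Eif2ak1 (-0.04), Eif4ebp3 (-0.04) and Eif4enif1 (-0.03) with array weights, for Eif2ak4 (0.05), Eif4e3 (0.00) and Eif4enif1 (-0.02) with the replicate block, and for Eif1 (-0.03), Eif2s1 (-0.04), Eif3e (-0.02), Eif4a1 (-0.12) and Eif5a2 (-0.02) after removal of GC and length trends, and for Eif2ak1 (-0.11), Eif4e3 (0.13) and Eif4enif1 (-0.08) without both KO1 and KO4. Over the leave-one-out fits the sign turned for Eif1 (-0.02 to 0.14), Eif1a (-0.06 to 0.46), Eif2ak1 (-0.08 to 0.15), Eif2ak4 (-0.24 to 0.05), Eif2s3x (-0.17 to 0.00), Eif4a1 (-0.07 to 0.10), Eif4e3 (-0.16 to 0.00) and Eif4enif1 (-0.02 to 0.10), given as the lowest to highest value. The cause of these changes was not tested. Depth is unknown, and values near 0.1 FPKM are at the rounding step.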
